A study of Mus musculus with 12 samples.

Results

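The 9 complement genes described here are C3, C4b, C1s1, C2, Cfb, Cfd, Cfp, C5ar1 and C3ar1, taken by symbol from a table of 20606 genes measured by bulk RNA sequencing in mouse lung fibroblasts. The libraries form 4 groups of 3: matrix fibroblasts from mice with lung metastasis (M-MF), matrix fibroblasts from normal mice (N-MF), MyoF cells, the myofibroblast subgroup, from mice with lung metastasis (M-MyoF) and the same subgroup from normal mice (N-MyoF). The series concerns breast cancer that spreads to the lung; the sources used here give neither strain, age, sex or tumour model nor how the subgroups were sorted. Values are FPKM, fragment counts scaled by transcript length and by library size, so levels of different genes can be set side by side. Of the 9 genes, 8 reached 1 FPKM in at least 3 libraries and were tested, and C3ar1 did not.

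Complement is a chain of plasma and tissue proteins in which one protease activates the next. The classical route starts when C1 binds a target and its protease C1s cleaves C4 and C2, and the alternative route runs through factor B and factor D; both build convertases that cleave C3, whose large fragment tags surfaces and whose small fragment, like that of C5, attracts and activates leukocytes. The liver makes most of the circulating proteins, but fibroblasts, macrophages and epithelial cells of the lung make part of them locally, and soluble and membrane inhibitors limit the chain on host cells.

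The libraries of a group were close to each other, with correlations of log2 values between 0.996 and 0.998 over the genes tested. Summed FPKM per library lay between 528176 and 618478. The number of reads is not given, but the most frequent value above 0 among short olfactory receptor genes was 0.06 or 0.07 FPKM in every library, which at 2 decimals does not settle whether depths differed. No label ties a library to a separate animal, and the spread behind each p-value is that among these libraries alone, possibly technical. Part of that spread followed the library number. Across groups, deviations from group means correlated at 0.482 to 0.796 between libraries of the same number and at -0.683 to 0.380 between others. The fits reported first leave this number out, and a fit with it is described further below. That spread was small enough for 78.1% of 13300 genes to pass between M-MF and N-MF and 80.7% between M-MyoF and N-MyoF, so a call alone says little and the size of a change is given first. Between M-MF and N-MF 59.3% of the calls were higher with values as deposited, and 49.9% with library sums made equal, 47.8% with median-ratio scaling and 40.9% with quantile normalization; between M-MyoF and N-MyoF the same shares were 60.8%, 45.8%, 48.2% and 41.4%. The median of all genes was 0.08 and 0.11 on the log2 scale as deposited in these comparisons, against -0.10 in both after quantile normalization, and a change is best read relative to that shift. Fibroblast markers (Col1a1, Col1a2, Pdgfra, Pdgfrb, Dcn and Lum) summed to 11010 to 11047 FPKM in M-MF, 17484 to 17667 in N-MF, 1417 to 1430 in M-MyoF and 2634 to 2671 in N-MyoF. All 6 fell in M-MF. In M-MyoF Dcn, Lum and Pdgfrb fell, whereas Col1a1 (399 FPKM, against 408 in N-MyoF), Col1a2 and Pdgfra did not pass. Pdgfrb was lower in M-MF than in M-MyoF (43.7 and 92.2 FPKM), against the direction of the other 5. Airway epithelial markers (4 genes, mostly Scgb1a1) summed to 12104 to 12711 FPKM in M-MyoF and 14861 to 15340 in N-MyoF, above the fibroblast sum of the same libraries. They summed to 1628 to 1654 in M-MF and 1051 to 1077 in N-MF. Alveolar epithelial markers (6 genes) summed to 3853 to 4014 FPKM in M-MyoF and 5255 to 5368 in N-MyoF, also above the fibroblast sum. In M-MF they summed to 1395 to 1413 FPKM and in N-MF to 1581 to 1613. Neutrophil markers (9 genes) summed to 13263 to 13610 FPKM in M-MyoF, above the fibroblast sum, and to 139 to 153 in N-MyoF, below it. In bulk libraries, fewer cells of a type and less RNA per cell cannot be told apart.

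C3 and Cfb rose in both subgroups in metastatic lung, and Cfd, which was close to 0 in normal matrix fibroblasts, rose in both as well. Between M-MF and N-MF 6 of the 8 tested genes were higher and 1 lower, where 46.3% and 31.8% of all genes were; 3 were higher and 0 lower by at least 2-fold, where 9.32% and 2.54% of all genes were and 11.9% in either direction. Between M-MyoF and N-MyoF 7 were higher and 1 lower, where 49.1% and 31.6% of all genes were, and 5 were higher and 0 lower by at least 2-fold, where 11.4% and 3.24% were and 14.6% in either direction. These calls are from limma on values as deposited. Of the 6 higher in M-MF, C1s1 and C2 did not pass as higher under any of the 3 scalings given above. C2 passed as lower there after quantile normalization. The 0 lower by at least 2-fold follow from the fold minimum alone. The log2 fold changes of the fallers, Cfp in M-MF (-0.66) and C2 in M-MyoF (-0.30), were smaller than that minimum at any p-value. The median log2 fold change of the 8 genes was 0.35 in M-MF against N-MF, beside 0.08 for all genes, and 1.71 in M-MyoF against N-MyoF, beside 0.11. The groups did not overlap for 7 and 8 of the genes in these comparisons, where 79.8% and 82.2% of all genes did not overlap. C3 alone held 61.3% to 61.8% of the summed FPKM of the 9 genes in M-MF and 48.9% to 49.4% in N-MF, and 43.4% to 43.8% in M-MyoF and 20.5% to 20.9% in N-MyoF.

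**Figure D1:**
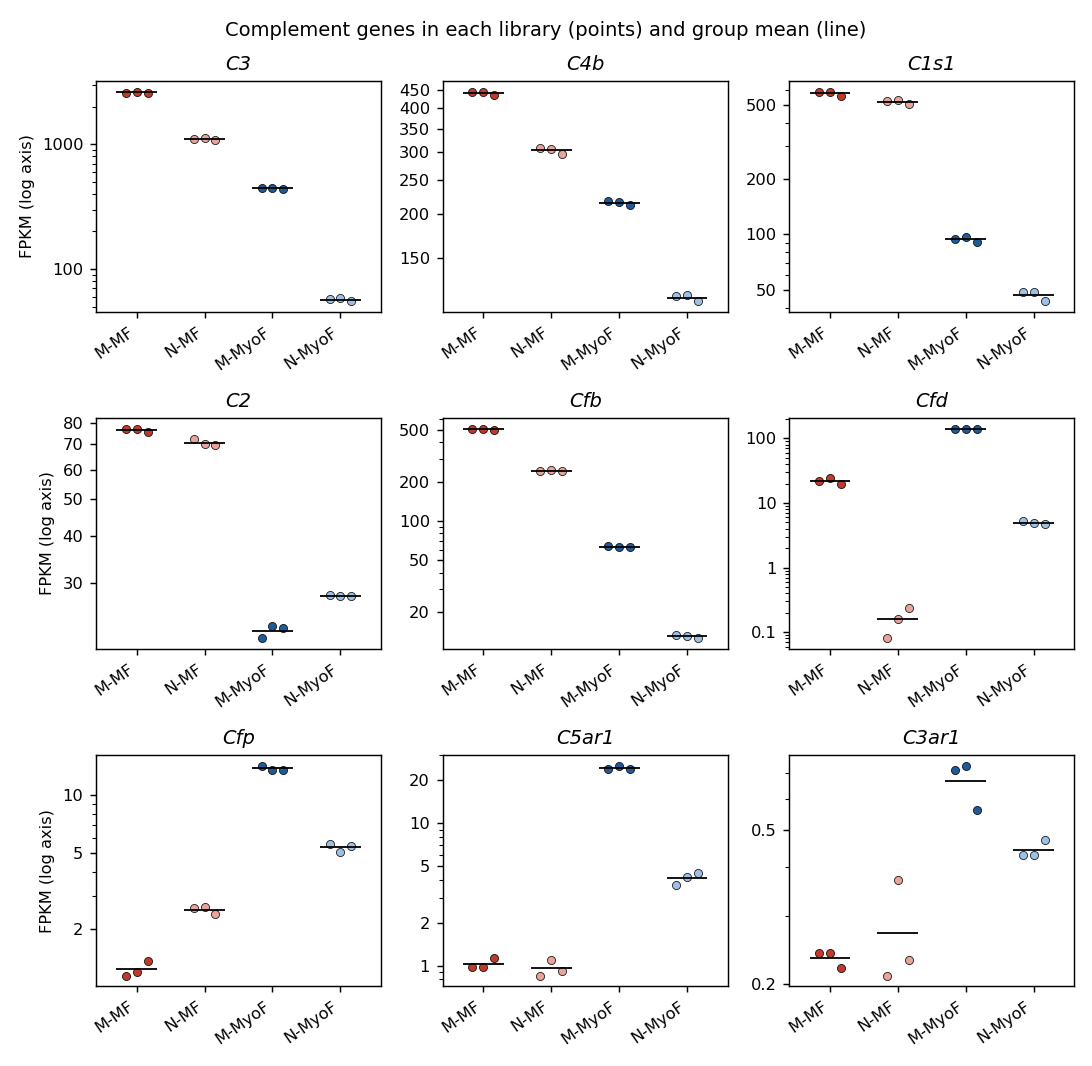
FPKM of each complement gene (log axis) in the 3 libraries of each group, as points with the group mean as a line. C3, C4b, C1s1 and Cfb stood highest in M-MF and lowest in N-MyoF, whereas Cfd, Cfp, C5ar1 and C3ar1 stood highest in M-MyoF.

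C3 is the protein on which all routes of complement meet. It lies on chromosome 17 from 57203967 to 57228136 (GRCm38.p6, RefSeq, as all positions here). Its level was 2595, 2656 and 2578 FPKM in the 3 M-MF libraries, against 1106, 1128 and 1081 FPKM in N-MF. In the MyoF subgroup it was 443.98, 450 and 439 FPKM in M-MyoF, against 57.0, 58.7 and 55.1 FPKM in N-MyoF. The 4 groups did not overlap, and their order ran from M-MF over N-MF and M-MyoF to N-MyoF. Among all genes of a library ordered by FPKM, C3 was number 18 or 19 in M-MF and 60 to 62 in N-MF, and 198 to 205 in M-MyoF and 1433 to 1534 in N-MyoF. C3 rose 2.36-fold in M-MF on the scale of FPKM + 1 (log2 fold change 1.24 ± 0.0235, SE; limma adjusted p = 7.02e-14) and 7.70-fold in M-MyoF (2.94 ± 0.0235; limma adjusted p = 3.64e-17). The rise was smaller in MF than in MyoF, with a difference of -1.70 ± 0.0332 (limma adjusted p = 6.27e-13). The MF level remained above the MyoF level, 5.86-fold in metastatic lung (2.55 ± 0.0235) and 19.1-fold in normal lung (4.26 ± 0.0235).

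C4b encodes complement C4, which the classical and lectin routes cleave, and lies on chromosome 17 from 34728139 to 34743902. Its level was 447, 444.48 and 438 FPKM in M-MF, against 309, 307 and 297 FPKM in N-MF. It was 218, 216 and 211 FPKM in M-MyoF, against 116, 117 and 113 FPKM in N-MyoF. The groups did not overlap and had the same order as for C3, over a narrower range. C4b rose 1.46-fold in M-MF (0.54 ± 0.0214; limma adjusted p = 8.60e-11) and 1.86-fold in M-MyoF (0.89 ± 0.0214; limma adjusted p = 5.37e-13), and the difference of the rises was -0.35 ± 0.0303. A near-identical copy, C4a, which RefSeq annotates as a transcribed pseudogene, stood 65189 bases away at 18.1 ± 2.45 FPKM in M-MF, 11.5 ± 1.70 in N-MF, 8.35 ± 1.08 in M-MyoF and 4.73 ± 0.631 in N-MyoF (mean ± SD, n = 3). The ratio of C4b to C4a averaged between 24.7 and 26.9 in the 4 groups and overlapped in each pair compared. How the counting split reads between these copies was not tested, and the levels of both are uncertain in that respect.

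The promoter windows of C3, Cfd and Cfp are shown because these genes cover the patterns seen: a rise of a gene abundant in matrix fibroblasts, a rise from near 0, and opposite changes in the subgroups. They are RefSeq sequences of GRCm38.p6, from 250 bases before to 50 after the annotated start, 5′ to 3′ on the gene's strand, with motif matches in capitals.
C3, chr17:57228087-57228386, minus strand: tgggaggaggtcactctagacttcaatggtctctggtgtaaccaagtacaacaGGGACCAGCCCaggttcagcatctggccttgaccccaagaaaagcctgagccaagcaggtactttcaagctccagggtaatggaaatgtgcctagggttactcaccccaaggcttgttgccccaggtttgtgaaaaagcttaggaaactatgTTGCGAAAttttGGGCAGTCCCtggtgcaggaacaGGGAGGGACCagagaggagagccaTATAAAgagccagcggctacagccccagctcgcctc
Cfd, chr10:79890603-79890902, plus strand: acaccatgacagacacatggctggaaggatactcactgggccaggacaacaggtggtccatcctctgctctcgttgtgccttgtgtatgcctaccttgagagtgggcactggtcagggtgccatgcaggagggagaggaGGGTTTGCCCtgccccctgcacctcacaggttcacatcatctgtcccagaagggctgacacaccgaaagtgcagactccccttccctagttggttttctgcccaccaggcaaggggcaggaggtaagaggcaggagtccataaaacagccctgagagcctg
Cfp, chrX:20931506-20931805, minus strand: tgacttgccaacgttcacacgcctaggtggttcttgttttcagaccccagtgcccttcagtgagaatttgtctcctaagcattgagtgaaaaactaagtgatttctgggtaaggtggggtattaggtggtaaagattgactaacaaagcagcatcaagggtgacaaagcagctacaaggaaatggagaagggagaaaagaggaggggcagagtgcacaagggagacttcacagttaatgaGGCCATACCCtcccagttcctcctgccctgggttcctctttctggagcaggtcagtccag
Windows were found for 6 of the 9 genes, and C1s1 had a pair of them; C4b, C2 and Cfb had none in the table used. Both strands were searched for NF-kappaB as GGG and CC spaced by 5 bases of any kind, GAS as TTCNNNGAA, the ISRE core as a pair of GAAA spaced by 2 bases, C/EBP as TTGCNNAA, AP-1 as TGANTCA, the TATA box as TATAAA, and CCAAT. In the C3 window, counted from 1 at its first base, a C/EBP match stood at bases 206 to 213. TATA box letters stood at 265 to 270, which is 14 to 19 bases past the annotated start and not before it. NF-kappaB letters stood at 54 to 64, where 2 matches overlapped, at 218 to 227 and at 241 to 250. The Cfd window held NF-kappaB letters at 140 to 149 and the Cfp window at 241 to 250, and neither held any of the other motifs. Of 32851 promoter windows, 50.8% held the NF-kappaB letters, 10.8% those of C/EBP and 13.6% the TATA box. A match describes letters only.

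The classical proteases C1s1 and C2 were within 1.11-fold and 1.08-fold between M-MF and N-MF, and moved in opposite directions in the MyoF subgroup. C1s1, on chromosome 6 from 124530344 to 124542392, encodes the protease C1s that cleaves C4 and C2. Its level was 585, 591 and 559 FPKM in M-MF, against 529, 531 and 504 FPKM in N-MF. In the other subgroup it was 94.7, 96.4 and 91.2 FPKM in M-MyoF, against 48.5, 48.9 and 43.3 FPKM in N-MyoF. The libraries did not overlap, but the M-MF and N-MF levels were close. The log2 fold change was 0.15 ± 0.0423 in M-MF (limma adjusted p = 0.00568), but 0.04 with equal sums, 0.01 with median-ratio scaling and -0.06 with quantile normalization, where it did not pass. In M-MyoF it was 0.99 ± 0.0423 (1.99-fold; limma adjusted p = 1.63e-10). C1s1 stood 6.09-fold higher in M-MF than in M-MyoF and 10.9-fold higher in N-MF than in N-MyoF. Its copy C1s2 kept a ratio to C1s1 of 0.0913 ± 0.0116 in M-MF and 0.0810 ± 0.00609 in N-MF, and of 0.0845 ± 0.00543 in M-MyoF and 0.0828 ± 0.00564 in N-MyoF (mean ± SD, n = 3), and the split of reads between them was not tested either.

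C2 supplies the catalytic part of the convertase of the classical route. It lies on chromosome 17 from 34862602 to 34882100, and only 87 bases separate it from Cfb. Its level was 77.1, 77.0 and 75.3 FPKM in M-MF, against 72.5, 70.1 and 69.8 FPKM in N-MF. It was 21.4, 23.1 and 22.7 FPKM in M-MyoF, against 27.9, 27.8 and 27.7 FPKM in N-MyoF. C2 was the one tested gene of the set that fell in M-MyoF (-0.30 ± 0.0284; limma adjusted p = 6.06e-07). In M-MF the log2 fold change was 0.11 ± 0.0284 (limma adjusted p = 0.00336) as deposited, did not pass with equal sums (adjusted p = 0.998), and was -0.02 after median-ratio scaling and -0.12 after quantile normalization, so its direction depends on the scaling. The effect in MF exceeded that in MyoF by 0.41 ± 0.0402 (limma adjusted p = 2.15e-06).

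Cfb, factor B, is the counterpart of C2 in the alternative route and lies on chromosome 17 from 34856374 to 34862514. Its level was 507, 508 and 499 FPKM in M-MF, against 242, 244 and 240 FPKM in N-MF. It was 64.0, 63.1 and 63.1 FPKM in M-MyoF, against 13.3, 13.1 and 12.5 FPKM in N-MyoF. As for C3, no groups overlapped and the order ran from M-MF to N-MyoF. Cfb rose 2.08-fold in M-MF (1.06 ± 0.0214; limma adjusted p = 1.23e-13) and 4.61-fold in M-MyoF (2.21 ± 0.0214; limma adjusted p = 1.91e-16), with a difference of -1.15 ± 0.0302 (limma adjusted p = 8.97e-12). The MF change was close to the 2-fold minimum, and the count of members past that minimum in M-MF ran from 2 to 3 under other settings. The subgroup difference was 7.85-fold in metastatic lung (2.97 ± 0.0214) and 17.4-fold in normal lung (4.12 ± 0.0214), MF over MyoF.

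Cfd encodes factor D, also called adipsin, which cleaves factor B and is abundant in fat cells. It lies on chromosome 10 from 79890853 to 79892655. Its level was 22.2, 24.0 and 19.6 FPKM in M-MF, against 0.08, 0.16 and 0.24 FPKM in N-MF. The N-MF values are at most a few times the most frequent value above 0 in short genes, so the fold in MF rests on very few fragments in N-MF. In the other subgroup Cfd stood at 142, 138 and 139 FPKM in M-MyoF, against 5.19, 4.88 and 4.81 FPKM in N-MyoF. The order of the groups, from M-MyoF over M-MF and N-MyoF to N-MF, was unlike that of C3 and Cfb, with no overlap. On the scale of FPKM + 1 Cfd rose 19.7-fold in M-MF (4.30 ± 0.0649; limma adjusted p = 8.38e-15) and 23.6-fold in M-MyoF (4.56 ± 0.0649; limma adjusted p = 4.82e-15). The difference of these rises, -0.26 ± 0.0917 (limma adjusted p = 0.0260), had the opposite sign with a pseudocount of 0.1 (1.66 ± 0.236), and did not pass without the libraries numbered 3 (-0.12) or without M-MF replicate 3, M-MyoF replicate 1, N-MF replicate 3 or N-MyoF replicate 2 or 3 (-0.25 to -0.18). Adipocyte markers moved with Cfd: the 5 of them summed to 7.81 to 8.98 FPKM in M-MF and 0.60 to 1.11 in N-MF, and to 54.3 to 55.5 in M-MyoF and 6.46 to 7.24 in N-MyoF. All 3 tested ones passed as higher in both comparisons. Among them Adipoq, adiponectin, averaged 2.29 FPKM in M-MF and 0.0967 in N-MF, and 14.2 in M-MyoF and 1.44 in N-MyoF, while Lep, leptin, was listed at 0 in M-MF, N-MF and M-MyoF. Epithelial markers of carcinoma (Krt8, Krt18, Epcam and Cdh1) summed to 289 to 295 FPKM in M-MF and 12.8 to 14.7 in N-MF, and to 684 to 707 in M-MyoF and 59.3 to 62.6 in N-MyoF, nearly all of it from the keratins Krt8 and Krt18, which rose in both. Epcam rose in M-MF (0.29 ± 0.0702) and did not pass in M-MyoF (0.04 ± 0.0702), and Cdh1 fell in both (-0.17 ± 0.0513 in M-MF and -0.30 ± 0.0513 in M-MyoF). The part of adipocyte and carcinoma markers in the result was not tested.

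Cfp, properdin, which stabilises the convertase of the alternative route and is known as a product of neutrophils and monocytes, passed in opposite directions in the subgroups. It lies on chromosome X from 20925454 to 20931555. Its level was 1.15, 1.20 and 1.37 FPKM in M-MF, against 2.58, 2.62 and 2.41 FPKM in N-MF, a log2 fold change of -0.66 ± 0.0486 (limma adjusted p = 4.77e-08). It was 14.3, 13.6 and 13.6 FPKM in M-MyoF, against 5.59, 5.07 and 5.42 FPKM in N-MyoF, a rise of 1.22 ± 0.0486 (2.33-fold; limma adjusted p = 7.96e-11). The difference of the effects was -1.88 ± 0.0687 (limma adjusted p = 1.75e-10). C2 also had effects of opposite sign as deposited, but its sign in MF depended on the scaling, whereas Cfp kept its directions under each of the 3 scalings.

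**Figure D2:**
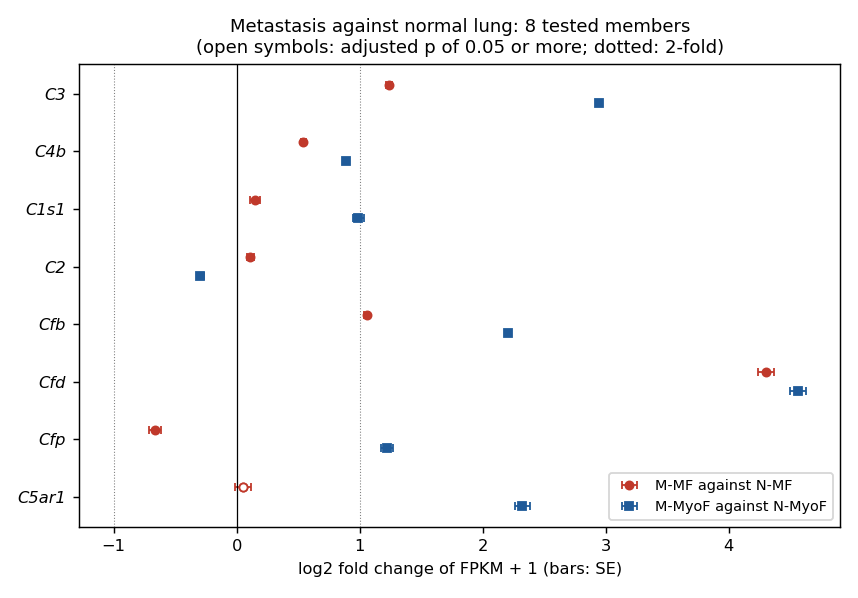
Log2 fold changes of FPKM + 1 with SE for the 8 tested genes, M-MF against N-MF (circles) and M-MyoF against N-MyoF (squares). C3, Cfb and Cfd lie beyond the 2-fold line in both as deposited, Cfb in MF by little (1.06). The count of tested genes beyond it in MF ran from 2 to 3 under other settings. The small MF effects of C2 and C1s1 turned or vanished under other scalings, and the open symbol of C5ar1 did not pass.

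The receptors for the small fragments were low in matrix fibroblasts. C5ar1, the receptor for C5a and a marker of neutrophils and other myeloid cells, lies on chromosome 7 from 16246743 to 16259540. Its level was 0.98, 0.98 and 1.13 FPKM in M-MF, against 0.85, 1.10 and 0.92 FPKM in N-MF. These groups overlapped and the log2 fold change of 0.05 ± 0.0634 did not pass (limma adjusted p = 0.446). In the other subgroup C5ar1 stood at 24.2, 25.4 and 24.3 FPKM in M-MyoF, against 3.69, 4.19 and 4.49 FPKM in N-MyoF, a rise of 5.01-fold (2.32 ± 0.0634; limma adjusted p = 1.82e-12), and the effects differed by -2.27 ± 0.0897 (limma adjusted p = 3.62e-10). C3ar1, the receptor for C3a, lies on chromosome 6 from 122847140 to 122856157 and stayed under 1 FPKM in every library. Its level was 0.24, 0.24 and 0.22 FPKM in M-MF and 0.21, 0.37 and 0.23 in N-MF, groups that overlapped, and 0.71, 0.73 and 0.56 in M-MyoF and 0.43, 0.43 and 0.47 in N-MyoF, which did not. Neutrophil markers moved with C5ar1 and Cfp in the MyoF subgroup. The 9 of them summed to 13263 to 13610 FPKM in M-MyoF and 139 to 153 in N-MyoF, with all 9 higher, and to 249 to 258 in M-MF and 33.3 to 38.0 in N-MF, with 7 of 9 higher. The common leukocyte gene Ptprc averaged 9.52 FPKM in M-MyoF and 3.80 in N-MyoF, and 0.480 in M-MF and 0.643 in N-MF. Of 7 tested macrophage markers 0 rose in either comparison, while 5 fell in M-MyoF and 4 in M-MF (limma; at an unadjusted p under 0.05 the counts were the same), and Siglecf was listed at 0 in M-MF; Marco, not tested, was listed at 0 in M-MF and N-MF alike. Macrophage markers summed to 957 to 994.67 FPKM in M-MyoF and 994 to 1039 in N-MyoF, and to 239 to 253 in M-MF and 267 to 274 in N-MF, most of it Lyz2. The part of other cells in the levels of C5ar1, Cfp and C3ar1 was not tested.

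**Figure D3:**
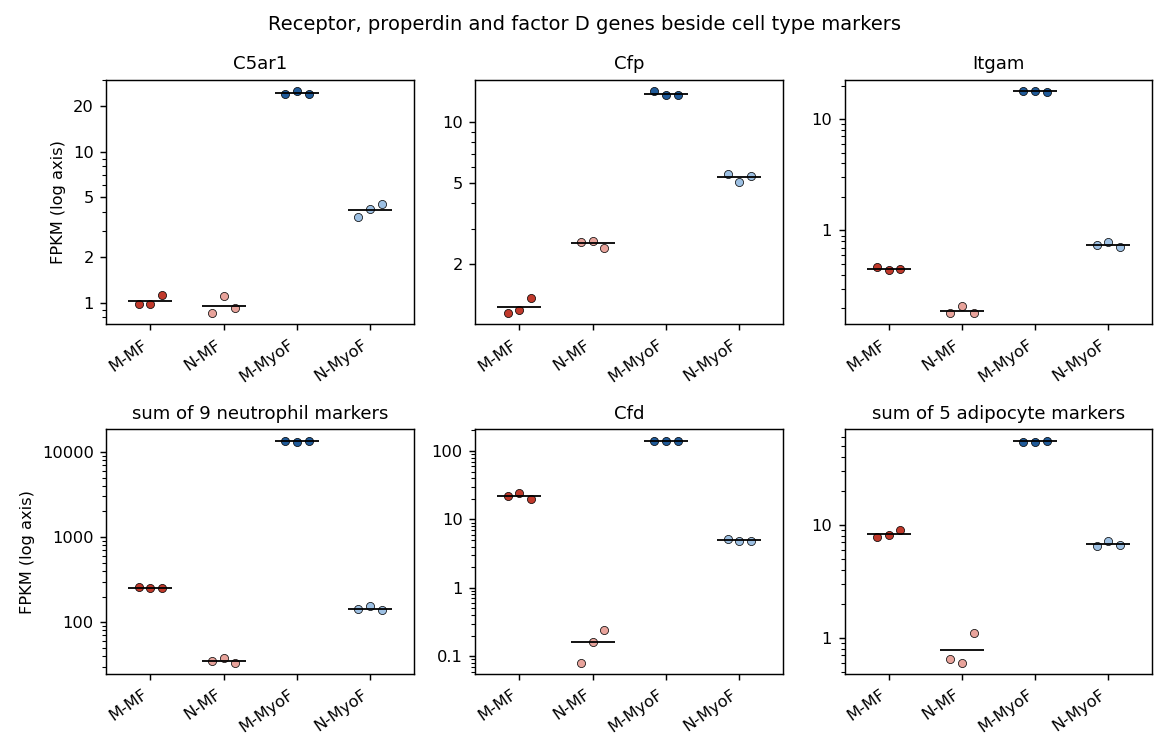
FPKM (log axis) of C5ar1, Cfp, Itgam and Cfd in the 3 libraries of each group, beside the summed FPKM of 9 neutrophil and 5 adipocyte markers in the same libraries; lines are group means. C5ar1, Cfp, Itgam, Cfd and both sums were highest in M-MyoF.

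Between the subgroups, complement genes fell into a set that was higher in MF and one that was higher in MyoF. In metastatic lung C3, C4b, C1s1, C2 and Cfb were higher in M-MF than in M-MyoF and Cfd, Cfp and C5ar1 lower, where 19.1% of all genes were higher and 66.0% lower, 85.1% together. All 8 differed by at least 2-fold, where 4.74% of all genes were that much higher and 8.82% lower, 13.6% together. In normal lung the same 5 were higher in N-MF than in N-MyoF and the same 3 lower, where 24.5% of all genes were higher and 57.6% lower, 82.0% together. Of these 8, 7 differed by at least 2-fold, where 4.88% of all genes were that much higher and 11.9% lower, 16.8% together. The groups of all 8 did not overlap in either comparison, where 85.6% of all genes did not overlap in metastatic and 82.4% in normal lung. The log2 fold changes of Cfd, Cfp and C5ar1 were -2.62 ± 0.0649, -2.73 ± 0.0486 and -3.66 ± 0.0634 in M-MF against M-MyoF, and -2.36 ± 0.0649, -0.85 ± 0.0486 and -1.39 ± 0.0634 in N-MF against N-MyoF. Those of C4b and C2 were 1.04 ± 0.0214 and 1.73 ± 0.0284 in M-MF against M-MyoF, and 1.39 ± 0.0214 and 1.32 ± 0.0284 in N-MF against N-MyoF. The median of all genes was -0.29 in the metastatic and -0.21 in the normal comparison as deposited, and -0.01 and 0.03 after median-ratio scaling. Under each scaling the 8 genes had the same direction as deposited in both comparisons.

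The effect of metastasis in MF minus that in MyoF passed for all 8 tested genes, positive for C2 and negative for the other 7, where 64.4% of all genes passed, 26.4% as positive and 38.0% as negative. The difference was at least 2-fold for 4 genes, C3, Cfb, Cfp and C5ar1, all negative, where 7.1% of all genes were, 3.83% positive and 3.27% negative. For Cfd the difference did not pass under any of the 3 scalings (-0.11 with equal sums, -0.04 with median-ratio scaling and -0.23 with quantile normalization) and was positive with a pseudocount of 0.1. The median over the 8 genes was -0.99, beside -0.06 for all genes.

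Ratios of genes within a library do not change when the library is scaled by a common factor, as with equal sums or median-ratio scaling. Quantile normalization can change them, and the ratios were not recomputed under it. The ratio of Cfb to C2 averaged 6.599 ± 0.0236 in M-MF and 3.42 ± 0.0710 in N-MF, and 2.83 ± 0.142 in M-MyoF and 0.467 ± 0.0127 in N-MyoF (mean ± SD, n = 3). In FPKM, which are scaled by transcript length, the alternative protease thus stood above its classical counterpart in all groups but N-MyoF. C3 over C4b averaged 5.89 ± 0.0840 in M-MF and 3.63 ± 0.0495 in N-MF, and 2.07 ± 0.0254 in M-MyoF and 0.493 ± 0.00668 in N-MyoF. C1s1 over Serping1, which encodes the C1 inhibitor, averaged 0.222 ± 0.00678 in M-MF and 0.127 ± 0.00435 in N-MF, and 0.144 ± 0.00473 in M-MyoF and 0.0600 ± 0.00410 in N-MyoF. For each of these ratios the metastatic and normal libraries did not overlap in either subgroup. With 3 libraries against 3, a two-sided exact permutation test cannot go below p = 0.1, so these ratios are given as values.

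**Figure D4:**
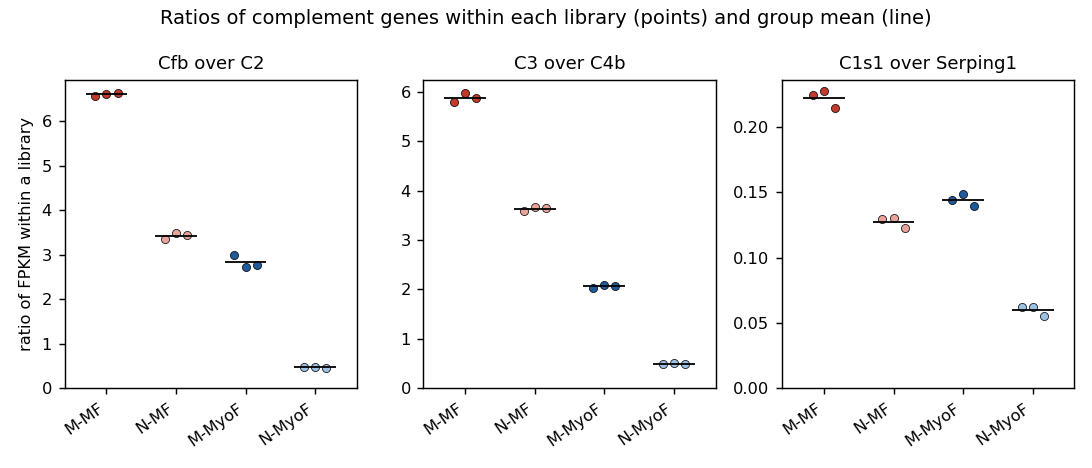
Ratios of FPKM within each library (points) with group means (lines), axes starting at 0. Metastatic libraries lie above normal ones in both subgroups, and for each of the 3 ratios MF libraries lie above MyoF libraries of the same lung.

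Of 46 other complement genes considered, 44 were in the table and 33 were tested. Between M-MF and N-MF 16 rose and 9 fell, 5 of the risers by at least 2-fold, and between M-MyoF and N-MyoF 13 rose and 11 fell, 7 at least 2-fold higher and 1 lower. Among all genes 46.3% rose and 31.8% fell in M-MF, and 49.1% rose and 31.6% fell in M-MyoF. The counts without a fold minimum are thus near the background, and the smaller counts by role below stand beside the same shares. By at least 2-fold, 9.32% of all genes were higher and 2.54% lower in M-MF, beside 5 and 0 of these 33. In M-MyoF 11.4% of all genes were that much higher and 3.24% lower, beside 7 and 1 of the 33. The median log2 fold change of the 33 genes was 0.12 in M-MF against N-MF, beside 0.08 for all genes, and 0.10 in M-MyoF against N-MyoF, beside 0.11. The 22 that averaged 5 FPKM or more in some group are described by role.

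Among 12 tested recognition molecules and starting proteases, 3 rose and 2 fell in M-MF, and 6 rose and 2 fell in M-MyoF, where 46.3% and 31.8% of all genes did in M-MF and 49.1% and 31.6% in M-MyoF. Masp1, whose products are proteases of the lectin route and the protease that matures factor D, stood at 22.2 ± 0.345 FPKM in M-MF and 1.61 ± 0.122 in N-MF, and at 28.7 ± 0.239 in M-MyoF and 2.40 ± 0.165 in N-MyoF (mean ± SD, n = 3). It rose 8.88-fold in M-MF (3.15 ± 0.0429) and 8.74-fold in M-MyoF (3.13 ± 0.0429), and was the one gene of this role at least 2-fold higher in both. C1ra, the protease that activates C1s, was abundant, with 664 ± 12.2 FPKM in M-MF and 842 ± 17.1 in N-MF, and 128 ± 3.23 in M-MyoF and 86.7 ± 1.44 in N-MyoF. It fell in M-MF (-0.34 ± 0.0231) and rose in M-MyoF (0.55 ± 0.0231). C1s2 rose in both (0.31 ± 0.0565 in M-MF and 0.88 ± 0.0565 in M-MyoF), the first not after quantile normalization (0.07, adjusted p = 0.266). C1rb, a copy of C1ra, set the libraries numbered 3 apart: it had 9.20, 8.71 and 23.5 FPKM in M-MF, against 6.09, 6.59 and 16.9 in N-MF, and 1.31, 1.49 and 3.26 FPKM in M-MyoF, against 0.46, 0.86 and 1.86 in N-MyoF. Its log2 fold changes of 0.44 ± 0.422 in M-MF and 0.55 ± 0.422 in M-MyoF did not pass (limma adjusted p = 0.348 and 0.242) but did with the library number as a block (adjusted p = 0.00519 and 0.00124) and without the libraries numbered 3 (0.44, adjusted p = 0.00506, and 0.54, adjusted p = 0.00149). C1qa and C1qb, C1q chains known from macrophages, averaged 1.68 and 2.89 FPKM in M-MF, 1.98 and 2.77 in N-MF, 6.78 and 8.08 in M-MyoF and 9.34 and 8.14 in N-MyoF; C1qb stood highest in the library numbered 2 of all 4 groups (5.18, 3.92, 8.86 and 9.55 FPKM) and C1qa in that of M-MF, N-MF and M-MyoF (2.71, 2.26 and 7.86 FPKM). Without M-MF replicate 2 alone C1qa passed as lower in M-MF (-0.45; limma adjusted p = 0.00362), which it did not with it (-0.20; adjusted p = 0.332). C1qa fell in M-MyoF (-0.42 ± 0.179, limma adjusted p = 0.0466), a call that was lost without any 1 of the N-MyoF libraries, M-MyoF replicate 1 or 3 or N-MF replicate 2 or 3 (-0.43 to -0.32). The call was also lost without the expression filter, with a pseudocount of 0.1 and without the libraries numbered 3 (limma adjusted p = 0.0773, 0.114 and 0.139). Colec12, a scavenger receptor of the collectin family, fell in both (-0.42 ± 0.0232 in M-MF and -0.35 ± 0.0232 in M-MyoF). Fcnb, ficolin B, a myeloid recognition protein, had 5.47, 7.19 and 5.82 FPKM in M-MyoF, against 0, 0 and 0.06 in N-MyoF, and 0.59, 0.40 and 0.50 in M-MF, against a listing of 0 in the 3 N-MF libraries.

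Of the other central components, Hc and C4a, 1 rose and 1 fell in each comparison, and of 3 tested terminal components 2 rose and 1 fell in M-MF and 1, C7, passed as higher in M-MyoF, where 78.1% and 80.7% of all genes passed. Hc, which encodes C5, fell in M-MyoF (7.003 ± 0.166 FPKM, against 8.46 ± 0.124 in N-MyoF; -0.24 ± 0.0404) and had 2.35 ± 0.0265 FPKM in M-MF and 2.59 ± 0.175 in N-MF. That MF change (-0.10 ± 0.0404; limma adjusted p = 0.0379) was lost without any 1 of the M-MF libraries or without N-MF replicate 1 or 2 (-0.06 for replicate 1). C7, part of the membrane pore, fell in M-MF to 92.2 ± 0.764 FPKM, against 171 ± 1.42 in N-MF (-0.89 ± 0.0383; limma adjusted p = 2.14e-10). In M-MyoF it had 10.41 ± 0.467 FPKM and in N-MyoF 9.63 ± 0.580, a change of 0.10 ± 0.0383 as deposited that turned negative under each of the 3 scalings and was lost without M-MyoF replicate 1 or 2 or N-MyoF replicate 2 (0.06 to 0.09); the groups overlapped. C4a rose in both subgroups (0.62 ± 0.124 in M-MF and 0.71 ± 0.124 in M-MyoF).

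Of 4 tested soluble inhibitors 3 rose and 1 fell in M-MF, and 1 rose and 2 fell in M-MyoF, where 78.1% and 80.7% of all genes passed; 1 of the 3, Vtn, did not pass under any of the 3 scalings. Serping1, at 2604 ± 5.62 FPKM in M-MF and 4091 ± 22.7 in N-MF, fell by 0.65 ± 0.0111 on the log2 scale (limma adjusted p = 2.61e-14), and it fell by 0.26 ± 0.0111 in M-MyoF (652 ± 4.88 FPKM, against 782 ± 3.33 in N-MyoF). Cfi, factor I, the protease that inactivates C3b and C4b, stood at 8.19, 8.36 and 8.23 FPKM in M-MF, against 0.09, 0.22 and 0.09 in N-MF, and at 2.06, 1.71 and 2.14 in M-MyoF, against 0.05, 0.05 and 0.03 in N-MyoF. It rose by 3.03 ± 0.0621 in M-MF and 1.51 ± 0.0621 in M-MyoF. Mesothelial markers (8 genes) summed to 265 to 270 FPKM in M-MF and 16.95 to 18.3 in N-MF, with 7 of 7 tested higher, and to 262 to 271 in M-MyoF and 136 to 141 in N-MyoF, with 6 of 7 higher; their part in these levels and in that of C3 was not tested. Clu, clusterin, which blocks the membrane pore, stood at 287 ± 2.21 FPKM in M-MF and 49.4 ± 1.46 in N-MF (2.52 ± 0.0270; limma adjusted p = 4.86e-16). In the MyoF subgroup it had 218 ± 4.54 FPKM in M-MyoF and 213 ± 6.89 in N-MyoF, a change of 0.04 ± 0.0270 that did not pass (adjusted p = 0.209), passed with the library number as a block (adjusted p = 0.0425) and passed as negative under each scaling (-0.26 to -0.12). Vtn, vitronectin, fell in M-MyoF (-0.17 ± 0.0411), and its change of 0.12 ± 0.0411 in M-MF was lost under each scaling and without M-MF replicate 1 or N-MF replicate 3 (0.10 and 0.09).

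Of 7 tested membrane inhibitors 3 rose and 3 fell in M-MF, and 1 rose and 4 fell in M-MyoF, beside 46.3% and 31.8% of all genes in M-MF and 49.1% and 31.6% in M-MyoF. Cd59a, which blocks the membrane pore, fell in M-MF (11.8 ± 0.522 FPKM, against 18.2 ± 1.35 in N-MF; -0.58 ± 0.0469) and in M-MyoF (23.3 ± 0.592 FPKM, against 40.4 ± 0.904 in N-MyoF; -0.77 ± 0.0469). Cd55, which speeds the decay of convertases, fell in M-MF (85.2 ± 2.46 FPKM, against 108 ± 0.682 in N-MF; -0.34 ± 0.0275) and rose in M-MyoF (13.4 ± 0.225 FPKM, against 6.01 ± 0.170 in N-MyoF; 1.04 ± 0.0275). Cr1l, the rodent inhibitor Crry, stood at 88.8 ± 2.59 FPKM in M-MF, 86.6 ± 1.27 in N-MF, 71.5 ± 0.941 in M-MyoF and 70.8 ± 2.02 in N-MyoF. Its changes of 0.04 ± 0.0265 in M-MF and 0.01 ± 0.0265 in M-MyoF did not pass as deposited, and passed as negative under each of the 3 scalings.

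Of 5 other tested receptors 4 rose and 1 fell in M-MF, and 3 rose and 2 fell in M-MyoF, beside the same shares of all genes, 78.1% and 80.7% in either direction. Itgam is the alpha chain of an integrin receptor. It stood at 17.8 ± 0.253 FPKM in M-MyoF and 0.743 ± 0.0351 in N-MyoF (3.43 ± 0.0389), and at 0.453 ± 0.0153 in M-MF and 0.190 ± 0.0173 in N-MF (0.29 ± 0.0389). Itgb2, the beta chain of that receptor, stood at 42.5 ± 0.518 FPKM in M-MyoF and 9.64 ± 0.232 in N-MyoF (2.03 ± 0.0346), and at 6.15 ± 0.152 in M-MF and 2.12 ± 0.111 in N-MF (1.20 ± 0.0346). The neutrophil marker sums given above moved with them. C1qbp, a mostly mitochondrial protein that can bind C1q, rose in both (1.16 ± 0.0466 in M-MF and 1.499 ± 0.0466 in M-MyoF). Cd93, a receptor found on endothelial and myeloid cells, rose in M-MF (0.26 ± 0.0421), which did not pass after quantile normalization (0.10), and fell in M-MyoF (-0.20 ± 0.0421).

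**Figure D5:**
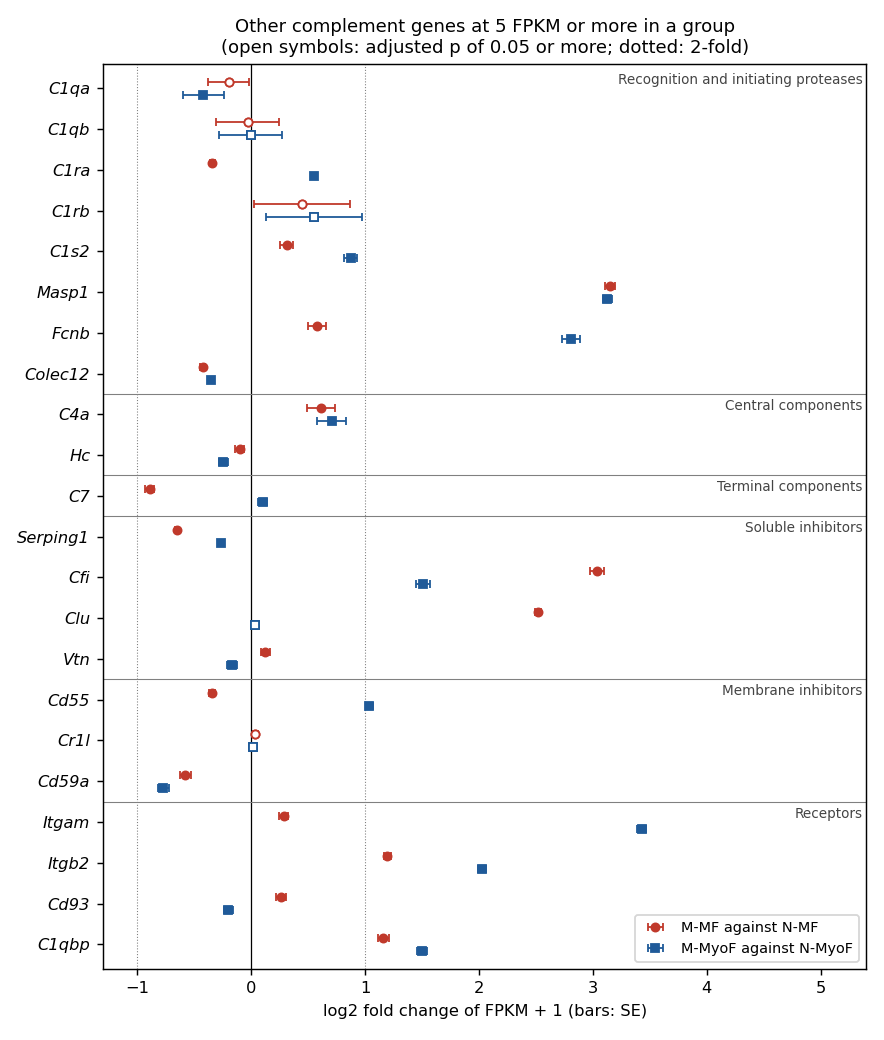
Log2 fold changes of FPKM + 1 with SE for 22 other complement genes, grouped by role, M-MF against N-MF (circles) and M-MyoF against N-MyoF (squares). Masp1, Cfi, Itgb2 and C1qbp lie beyond the 2-fold line in both; Cr1l, C7 and Clu in MyoF and Vtn and Cr1l in MF changed sign under at least 1 other scaling, and C1rb passed only with the library number as a block or without the libraries numbered 3.

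Genes with the most alike pattern were sought over the 4 group means of log2(FPKM + 1), each centred, among 9532 genes that passed the filter and averaged at least 5 FPKM in their highest group; the measure is the Euclidean distance, and the 4 points of a gene share libraries, so it is a description. For C3 the nearest were Serpina3c at 0.53, Cfb at 0.56 and Cyp1b1 at 0.77. For Cfb they were Adgrd1 at 0.31, Ifi207 at 0.44 and C3 at 0.56. C3 and Cfb were thus among the 3 nearest of each other. For C4b the nearest were Idh1 at 0.13 and B4galt1 at 0.15, and for C2 they were Dpp4 at 0.15, Gas7 at 0.17 and Aox3 at 0.19. For C1s1 they were its copy C1s2 at 0.22, Cpxm1 at 0.42 and Cd55 at 0.43. The nearest to Cfd lay farther away, with Lrg1 at 0.93 and Krt8 at 1.04 and Krt18 at 1.08. For Cfp, Pilra at 0.26 and Myo1f at 0.29 were among the 3 nearest, and for C5ar1 they were Ccr1 at 0.19, Clec4e at 0.21 and Csf3r at 0.25.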

How the data were processed

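Bulk RNA of 12 mouse lung fibroblast libraries was measured after cDNA synthesis with SMART-SeqII and transposon-based library construction, per the labels' protocols. The deposited values are the authors' FPKM, named so per the file headers and given to 2 decimals; the genome build was GRCm38 per the submitters' processing notes, and the sources used here name no aligner, counter or annotation. Whether counting used strand is not stated. Groups came from sample titles, and 0 columns belonged to no listed sample.

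The FPKM were put on a scale of log2(FPKM + 1), and limma 3.58.1 in R 4.3.3 was run on the 13300 genes that reached 1 FPKM in 3 or more libraries. A linear model of the 4 group means with a mean-variance trend gave 5 contrasts; p-values are two-sided, adjusted by Benjamini-Hochberg over all genes, with a threshold of 0.05, and because of the added 1, fold changes of low genes are understated. Errors of log2 fold changes are SE. Symbols were matched exactly, and RefSeq positions by gene number for 9 of 9 genes. Members and lists were chosen with earlier results of these data known. The named genes are the 9 members, other listed complement genes averaging at least 5 FPKM in some group, and the 3 genes most alike to each member; 1 listed complement gene, left out of the counts, and some of the alike genes are not reported here. Library numbers were checked as pairs: over 1830 genes at 50 FPKM or more, deviations from group means correlated at 0.482 to 0.796 in 18 same-number pairs and -0.683 to 0.380 in 36 others, so the number was fitted as a block in an alternative. Other alternatives were pseudocounts of 0.1 and 5, other filters, 3 scalings, a fit of the compared groups only and libraries left out. The code was tested on simulated data. Tables used Python 3.11.15, pandas 2.3.3 and scipy 1.17.1.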

Additional observations from a re-analysis of the deposited data

Results flagged for a closer look

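The effects of metastasis differed between the subgroups, by the test of the difference itself (M-MF against N-MF minus M-MyoF against N-MyoF, limma adjusted p under 0.05), for 8 of 8 tested members and 15 of 22 named other complement genes, where 64.4% of all genes passed. Among the members the difference on the log2 scale was -2.27 for C5ar1, -1.88 for Cfp, -1.70 for C3, -1.15 for Cfb, -0.84 for C1s1, -0.35 for C4b and -0.26 for Cfd, and 0.41 for C2. That of Cfd did not pass under the 3 scalings, under 5 of the 12 ways to leave out a library (-0.25 to -0.18) or without the libraries numbered 3 (-0.12).

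Among the other complement genes the effect was lower in MF for 9. The difference was -3.14 for Itgam, -2.22 for Fcnb, -1.38 for Cd55, -0.99 for C7, -0.89 for C1ra, -0.83 for Itgb2, -0.56 for C1s2, -0.39 for Serping1 and -0.34 for C1qbp. The difference of Serping1 did not pass after quantile normalization (0.0060; adjusted p = 0.846). The effect was higher in MF for 6 genes, with 2.48 for Clu, 1.53 for Cfi, 0.46 for Cd93, 0.29 for Vtn, 0.19 for Cd59a and 0.14 for Hc. The difference of Hc did not pass with the library number as a block (adjusted p = 0.0552), without the expression filter or with a pseudocount of 0.1 (adjusted p = 0.0607 and 0.122), without the libraries numbered 3 (0.08) or without any 1 of 10 libraries (0.11 to 0.15), and that of Cd59a not without M-MF or N-MF replicate 3 (0.17 and 0.15) or without the libraries numbered 3 (0.13).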

How the results depend on the processing

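Counts of members past the threshold, with and without a 2-fold minimum, stayed within 1.5 times the reported count in all 218 recomputed counts: with no fold minimum they ran from 5 to 7 (reported 7) for M-MF against N-MF and from 8 to 9 (reported 8) for M-MyoF against N-MyoF. At 2-fold or more they ran from 2 to 3 (reported 3) and from 4 to 6 (reported 5). For N-MF against N-MyoF the 2-fold count ran from 5 to 8 (reported 7). A count of 9 includes C3ar1, which was fitted only without the expression filter. There C3ar1 passed as higher in M-MyoF (0.21, limma adjusted p = 0.00389) but did not pass in M-MF (-0.04). Its difference of effects was -0.25 (limma adjusted p = 0.0146), at levels under 1 FPKM. Of 872 recomputed log2 fold changes of members, 853 kept direction and side of the threshold, 12 lost the call, 4 reversed and 3, all of C5ar1 in MF, changed sign without passing. The reversals were C2 in MF (-0.025 after median-ratio scaling, -0.12 after quantile normalization), C1s1 in MF (-0.061, quantile) and the Cfd difference of effects (1.66, pseudocount of 0.1). Among other complement genes, the scalings by equal sums, by median ratio and by quantiles gave, in this order, -0.075, -0.10 and -0.21 for Cr1l in MF, -0.17, -0.14 and -0.28 for Cr1l in MyoF, -0.072, -0.044 and -0.10 for C7 in MyoF and -0.15, -0.12 and -0.26 for Clu in MyoF. Vtn in MF had -0.00091 after median-ratio scaling and -0.019 after quantile normalization, the Serping1 difference of effects 0.0060 after quantile normalization, the Masp1 difference -0.15 with a pseudocount of 5, and C1qbp in N-MF against N-MyoF 0.21 after median-ratio scaling. The cause was not tested. With the library number as a block no call of a member changed, in any of the 5 contrasts; C3 in M-MF against N-MF was 1.24 in that fit as well. Besides C1rb and Clu in the comparisons given above, the block made the Colec12 difference of effects (-0.07, adjusted p = 0.0169) and C1qbp in N-MF against N-MyoF (-0.08, adjusted p = 0.0332) pass, and the Hc difference of effects lost its call (adjusted p = 0.0552). FPKM near the most frequent value above 0 in short genes, as for Cfd in N-MF and Cfi in normal lung, limit the folds of these genes.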

Other observations

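Complement genes under 5 FPKM in every group were counted above but not described, and 3 of them, chosen after their values were seen, are given here. Susd4, a membrane protein that inhibits convertases, averaged 1.37 FPKM in M-MF and 0.193 in N-MF, and 0.583 in M-MyoF and 0.770 in N-MyoF. C8g, a chain of the membrane pore complex, averaged 2.70 FPKM in M-MF and 1.58 in N-MF, and 2.03 in M-MyoF and 1.40 in N-MyoF. Itgax, an integrin chain known from dendritic cells and alveolar macrophages, averaged 0.203 FPKM in M-MyoF and 1.55 in N-MyoF, and 0.00333 in M-MF and 0.253 in N-MF.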
